A study of Mus musculus with 10 samples.

Results

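The 9 integrin subunit genes Itga4, Itga5, Itga6, Itgal, Itgav, Itgb1, Itgb2, Itgb3 and Itgb7 were taken by name from the 25579 genes of the deposited RNA-seq tables, and all 9 were among the 13436 genes tested. They were followed across mouse bone marrow cells of 4 Pax5 genotypes, with 2 RNA-seq libraries per genotype, and across the Pax5 peaks of 2 ChIP-seq libraries. All mice were of the C57BL/6 strain. Pax5 +/+ pro-B cells carry both wild-type alleles, Pax5 +/- pro-B cells carry 1 wild-type allele, and Pax5 R31Q/- pro-B cells carry an allele for the R31Q form of the Pax5 protein opposite a null allele. The remaining cells are labelled as progenitors from Pax5 fl/fl mice with Vav-Cre, a recombinase driven by the promoter of a pan-hematopoietic gene, and are called Pax5-deleted here. The authors describe these sorted cells as pro-B cells too, so the label and the paper differ in the name of the cell type. The ChIP-seq was done on pro-B cells cultured for a short time on OP9 stromal cells with IL-7, from a Rag2 -/- mouse for wild-type Pax5 and from a Pax5 R31Q/- mouse for the mutant protein, 1 library each, so peaks have no replicate check. The labels do not say which animals a library came from, so the p-values measure the spread between these libraries, which may be technical.

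Integrins are cell surface receptors made of an α and a β subunit, and which pairs form decides which ligand a cell can bind. Early lymphoid cells hold on to bone marrow stroma mainly through the α4 subunit, which with β1 binds Vcam1 and fibronectin and with β7 binds Madcam1 of the gut endothelium. Pax5 is the transcription factor that commits lymphoid progenitors to the B cell lineage, both by switching B cell genes on and by switching genes of other lineages off.

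The values are TPM (reads of a gene divided by its length, scaled to the same total in every library). Differences are log2 fold changes on the log2(TPM + 1) scale, which understates the change of weakly expressed genes, and a gene passed when its adjusted p-value from limma (Benjamini-Hochberg over all genes tested) was under 0.05. The smallest p that an exact two-sided permutation test allows for 2 libraries against 2 is 0.333, and limma goes lower by pooling the spread of many genes and of all 8 libraries. By the reads recovered from the TPM steps, the libraries held from 21833654 to 34837452 reads on genes, the fewest in a Pax5-deleted library, and the rarest member, Itgb7, rested on 69 to 142 reads in each library that was not Pax5-deleted. Pax5 itself was at 417.8 and 443.7 TPM in Pax5 +/+, 272.1 and 286.6 in Pax5 +/-, 306.2 and 293.0 in Pax5 R31Q/- and 1242 and 1409 in Pax5-deleted cells. A value per gene does not show which exons were read, so the Pax5 level does not check the deletion. Among B lineage genes, the transcription factor gene Ebf1 (154.4 against 478.0 TPM) and the pre-B cell receptor genes Vpreb1 (1074 against 3288 TPM) and Igll1 (1189 against 3694 TPM) passed as lower in Pax5-deleted than in Pax5 +/+ cells, by their mean levels. So did, by larger factors, the antigen receptor signalling chain gene Cd79a (561.1 against 3876 TPM, log2 fold change -2.76, adjusted p = 0.000126 from limma) and the recombinase gene Rag2 (28.5 ± 9.24 TPM, SD, n = 2, against 128.4 and 131.6 TPM, -2.19, adjusted p = 0.000177 from limma). Other pro-B cell genes moved less or the other way. Cd79b (1132 against 1688 TPM) and Rag1 (306.9 against 561.2 TPM) passed as lower by smaller factors. Dntt passed as higher (3319 against 2298 TPM, adjusted p = 0.0171 from limma). Il7r (304.9 against 204.9 TPM) and Kit (44.6 against 58.7 TPM) did not pass. In bulk RNA, fewer cells of a type and less RNA per cell cannot be told apart.

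**Figure D1:**
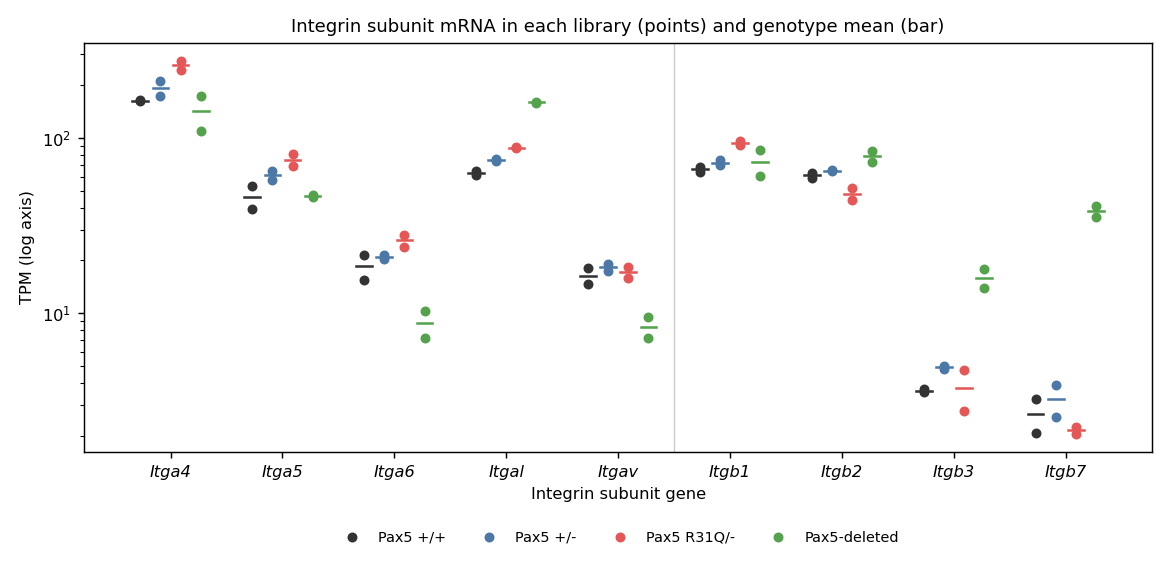
TPM (log axis) of the 9 integrin subunit genes in each of the 8 libraries, as points, with the mean of the 2 libraries of a genotype as a bar. Itgb7 and Itgb3 stand at 35.5 to 40.9 and 13.9 to 17.9 TPM in Pax5-deleted cells and at or below 5.03 TPM in every other library.

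A set of 4 stretches around Pax5 peaks is shown because they lie at the members whose mRNA differed most between genotypes. Not every wild-type peak of these members is shown. Left out are the start-site peaks of Itga6 and Itgb3, the exon 5 and intron 10 peaks of Itgb3 and the exon 16 peak of Itgal. Each stretch is the 300 bases at the midpoint of a peak of wild-type Pax5, from GRCm38, written 5′ to 3′ on the strand of the gene. Capitals mark GTCATGC, the reverse complement of GCATGAC, which is one of a pair of words searched on both strands (GCGTGAC and GCATGAC, the core of the Pax5 recognition sequence). The first stretch is chr15:102225391-102225690, on the minus strand, in intron 2 of Itgb7, where both Pax5 forms had a peak.
Itgb7 intron 2: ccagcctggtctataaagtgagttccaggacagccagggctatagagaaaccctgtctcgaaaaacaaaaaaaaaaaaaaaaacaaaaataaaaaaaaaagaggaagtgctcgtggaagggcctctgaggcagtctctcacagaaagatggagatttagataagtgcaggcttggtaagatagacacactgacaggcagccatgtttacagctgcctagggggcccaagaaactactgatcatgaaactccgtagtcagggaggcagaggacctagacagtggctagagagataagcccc
The second stretch is chr11:104631360-104631659 on the plus strand, in intron 2 of Itgb3, where only wild-type Pax5 had a peak.
Itgb3 intron 2: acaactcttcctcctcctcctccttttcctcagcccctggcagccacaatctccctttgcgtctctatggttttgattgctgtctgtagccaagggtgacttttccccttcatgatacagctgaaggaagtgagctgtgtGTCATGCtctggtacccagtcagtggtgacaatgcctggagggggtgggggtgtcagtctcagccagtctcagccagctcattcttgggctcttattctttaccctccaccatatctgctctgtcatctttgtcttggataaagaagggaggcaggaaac
The third stretch is chr7:127290217-127290516 on the plus strand, upstream of Itgal and overlapping an exon of the RefSeq gene Gm31897, where both forms had a peak.
Itgal upstream: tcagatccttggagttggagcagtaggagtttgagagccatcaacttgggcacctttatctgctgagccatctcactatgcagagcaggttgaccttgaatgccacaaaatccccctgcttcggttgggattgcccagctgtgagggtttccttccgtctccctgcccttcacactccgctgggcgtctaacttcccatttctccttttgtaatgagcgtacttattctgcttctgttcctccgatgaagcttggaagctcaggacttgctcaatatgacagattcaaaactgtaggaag
The fourth stretch is chr2:71788210-71788509 on the plus strand, in intron 1 of Itga6, where only wild-type Pax5 had a peak.
Itga6 intron 1: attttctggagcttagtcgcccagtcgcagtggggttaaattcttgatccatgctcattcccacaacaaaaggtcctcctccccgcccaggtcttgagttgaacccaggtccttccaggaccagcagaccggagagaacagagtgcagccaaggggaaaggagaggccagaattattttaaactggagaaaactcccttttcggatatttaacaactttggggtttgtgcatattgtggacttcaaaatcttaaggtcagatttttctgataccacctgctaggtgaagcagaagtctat
Only the 300 bases at the midpoint of each peak were searched, so the rest of a wider peak was not. The searched words occurred in this window at 1 of the 14 wild-type peaks at the members, the Itgb3 intron 2 peak. At the 13 R31Q peaks they occurred in 0 windows. They occurred in 10.7% of the windows of all common wild-type peaks, in 5.05% of all unique ones, in 15.4% of the unique ones that were less than 50% repeat-masked, as the Itgb3 intron 2 peak was, and in 4.23% of 32851 promoter windows of the same length. A match is a description and not a site, and no match says only that these letters are not in the window.

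The mRNAs of all 9 integrins were present in Pax5-deleted and in Pax5 +/+ cells, and the levels of several differed. In Pax5-deleted against Pax5 +/+ cells, 3 of the 9 members passed as higher (Itgb7, Itgb3 and Itgal) and 2 as lower (Itga6 and Itgav), beside 16.2% of all genes tested that passed as higher and 19.7% that passed as lower. The median log2 fold change of the members was 0.11, against -0.11 over all genes tested. Itgb7 and Itgb3 also differed over 3-fold with a mean above 5 TPM in a genotype, as 3.07% of all genes tested did in that direction.

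Itgb7 (chromosome 15 from 102215994 to 102233405, minus strand), the β7 subunit that pairs with α4 or with αE (Itgae), was the weakest member in each of the 6 libraries that were not Pax5-deleted. It had 3.25 and 2.08 TPM in Pax5 +/+, 2.56 and 3.92 in Pax5 +/-, 2.26 and 2.06 in Pax5 R31Q/- and 35.5 and 40.9 TPM in Pax5-deleted cells. Both Pax5-deleted libraries were far above the other 6. The Pax5 +/+ values overlapped those of Pax5 +/- and of Pax5 R31Q/-, while both Pax5 R31Q/- values were below both Pax5 +/- values. The mean rose 14.3-fold, from 2.67 ± 0.829 to 38.2 ± 3.84 TPM (SD, n = 2). This is a log2 fold change of 3.43 (95% confidence interval 2.89 to 3.97, adjusted p = 4.72e-05 from limma).

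Itgb3 (chromosome 11 from 104608000 to 104670476, plus strand), the β3 subunit that joins αv in the vitronectin receptor and αIIb (Itga2b) in the platelet fibrinogen receptor, was also highest in Pax5-deleted cells, by a smaller factor. It was at 3.56 and 3.68 TPM in Pax5 +/+, 5.03 and 4.79 in Pax5 +/-, 4.72 and 2.76 in Pax5 R31Q/- and 13.9 and 17.9 TPM in Pax5-deleted cells. The rise from Pax5 +/+ to Pax5-deleted cells was 4.39-fold, a log2 fold change of 1.86 (95% confidence interval 1.32 to 2.4, adjusted p = 0.000772 from limma). The 2 Pax5 R31Q/- libraries were farther apart than those of Pax5 +/+ and of Pax5 +/-, lay on either side of the Pax5 +/+ values and were below both Pax5 +/- values.

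Itgal (chromosome 7 from 127296139 to 127335137, plus strand), the αL subunit of the leukocyte receptor for Icam ligands, was lowest in Pax5 +/+ and highest in Pax5-deleted cells. Its values were 61.0 and 64.9 TPM in Pax5 +/+, 74.1 and 76.2 in Pax5 +/-, 88.2 and 87.4 in Pax5 R31Q/- and 159.3 and 158.9 TPM in Pax5-deleted cells. No 2 genotypes overlapped, but of the steps between neighbours in this order only the one from Pax5 R31Q/- to Pax5-deleted cells passed. Pax5-deleted exceeded Pax5 +/+ by a log2 fold change of 1.32 (95% confidence interval 1.10 to 1.55, adjusted p = 7.05e-05 from limma). Its partner Itgb2, the β2 subunit, was at 59.4 and 63.0 TPM in Pax5 +/+ and at 83.8 and 73.0 TPM in Pax5-deleted cells, a log2 fold change of 0.35 that did not pass (95% confidence interval 0.06 to 0.64, adjusted p = 0.0644 from limma). Itgb2 passed as higher with quantile normalization (adjusted p = 0.0358), with limma-voom on reads (0.0443) and without Pax5-deleted replicate 2 (0.0294).

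The laminin receptor subunit Itga6 and the vitronectin receptor subunit Itgav were lower without Pax5. Itga6 was at 21.5 and 15.5 TPM in Pax5 +/+ and at 7.26 and 10.3 TPM in Pax5-deleted cells, and its log2 fold change was -0.99 (95% confidence interval -1.49 to -0.49, adjusted p = 0.00973 from limma). Itgav was at 18.1 and 14.6 TPM in Pax5 +/+ and at 7.26 and 9.49 TPM in Pax5-deleted cells, a log2 fold change of -0.89 (95% confidence interval -1.32 to -0.46, adjusted p = 0.0078 from limma). In both genes all libraries of the other 3 genotypes were above the Pax5-deleted ones. Both calls were lost when only the 2 genotypes entered the fit (adjusted p = 0.0804 for Itga6 and 0.0749 for Itgav from limma), and that of Itga6 also with no filter on low TPM (0.0541). Without Pax5 +/+ replicate 1 the Itga6 call was also lost, with a log2 fold change reduced to -0.77 (adjusted p = 0.0584 from limma).

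The 3 broadly used subunits did not pass in this comparison. Itga4, the most abundant member in every genotype but the Pax5-deleted one, was at 161.4 and 164.7 TPM in Pax5 +/+ and at 109.9 and 174.3 TPM in Pax5-deleted cells. Itgb1, the β1 subunit shared by many α chains, was at 68.5 and 64.1 against 60.2 and 84.7 TPM. Itga5, the α5 chain of the fibronectin receptor, was at 39.1 and 53.0 against 47.3 and 46.1 TPM. For these genes the Pax5-deleted and Pax5 +/+ libraries overlapped, and the log2 fold changes were -0.23 (95% confidence interval -0.72 to 0.25), 0.11 (-0.27 to 0.48) and 0.04 (-0.35 to 0.42). The direction of each turned when a single library was left out, Itga4 without Pax5-deleted replicate 1 (0.10), Itgb1 without Pax5-deleted replicate 2 (-0.14) and Itga5 without Pax5 +/+ replicate 1 (-0.18). Without Pax5-deleted replicate 2 Itga4 passed as lower (-0.57, adjusted p = 0.0228 from limma), and without replicate 1 Itgb1 passed as higher (0.35, adjusted p = 0.0467 from limma).

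**Figure D2:**
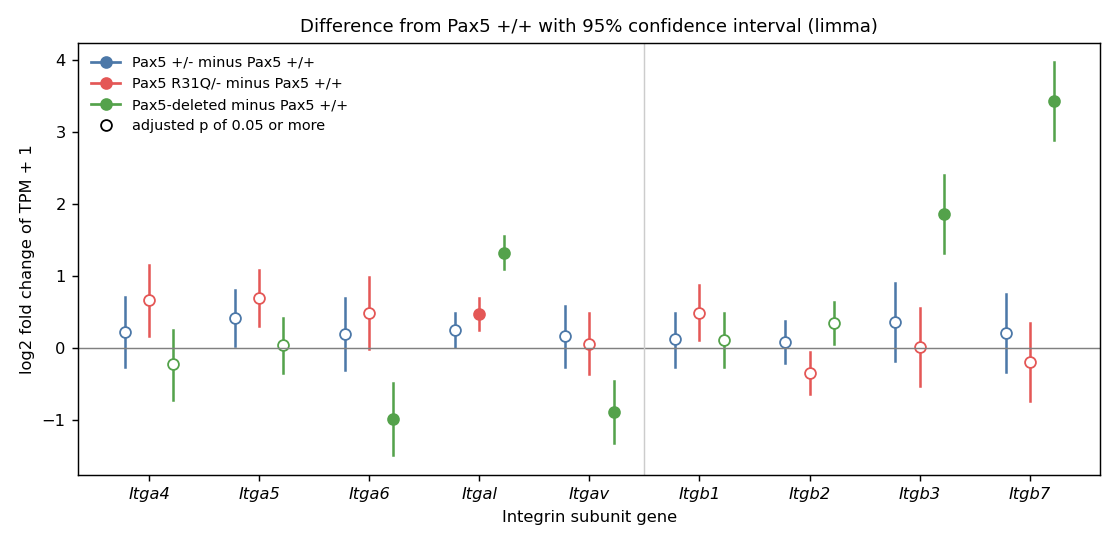
Log2 fold change of TPM + 1 against Pax5 +/+ (y axis) for the 9 genes in the 3 other genotypes, with the 95% confidence interval from limma. Filled points passed at an adjusted p-value under 0.05, which in Pax5 R31Q/- holds for Itgal alone and in Pax5 +/- for no member.

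In Pax5 R31Q/- pro-B cells Itgal alone passed, and the rises of Itgb7 and Itgb3 seen in Pax5-deleted cells were not seen. When Pax5 R31Q/- was compared with Pax5 +/+, 1 of 9 members passed as higher and 0 as lower, beside 1.62% and 2.55% of all genes tested. Itgal was the member that passed, from 62.9 ± 2.78 to 87.8 ± 0.567 TPM (SD, n = 2), a log2 fold change of 0.47 (95% confidence interval 0.25 to 0.70, adjusted p = 0.0396 from limma). Its size hardly moved with the settings (0.43 to 0.52), but the call was lost in 10 of 17 of them, among them each fit that left out a library of Pax5 +/+, Pax5 +/- or Pax5 R31Q/- (adjusted p of 0.067 to 0.256 from limma). Itgb7 and Itgb3, which rose without Pax5, had log2 fold changes of -0.20 (95% confidence interval -0.74 to 0.34) and 0.01 (-0.53 to 0.55) in Pax5 R31Q/-.

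Another 4 members were higher in both Pax5 R31Q/- libraries than in both Pax5 +/+ libraries without passing. How many of all genes tested lay so was not counted, so no excess is read from this. Itga4 was at 273.1 and 245.1 TPM, with a log2 fold change of 0.66 (95% confidence interval 0.17 to 1.15, adjusted p = 0.144 from limma). Itga5 was at 80.7 and 68.9 TPM, with 0.70 (0.31 to 1.09, adjusted p = 0.0646 from limma). Itgb1 was at 91.5 and 95.3 TPM, with 0.49 (0.11 to 0.87, adjusted p = 0.16 from limma). These are the subunits of the fibronectin and Vcam1 receptors. Itga6 was at 28.1 and 23.9 TPM, with 0.48 (-0.02 to 0.98, adjusted p = 0.28 from limma), which was 0.26 without Pax5 +/+ replicate 2 and 0.71 without replicate 1. Itga4 and Itgb1 passed when either Pax5-deleted library was left out of the fit (adjusted p of 0.0357 and 0.0377 for Itga4, 0.0327 and 0.0331 for Itgb1, from limma). Pax5-deleted is the genotype whose libraries lay farthest apart for both genes. Itgb2 lay the other way, at 51.7 and 44.4 TPM, with -0.35 (-0.64 to -0.05, adjusted p = 0.195 from limma). The median over the 9 members was 0.47, against 0.04 over all genes tested.

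Loss of 1 Pax5 allele gave no call. In Pax5 +/- against Pax5 +/+ pro-B cells, 0 members passed in either direction, as did 0% (higher) and 0.0223% (lower) of all genes tested. By limma 813 genes had an unadjusted p-value under 0.05, among them Itga5 and Itgal. The log2 fold changes of the 9 members ran from 0.08 for Itgb2 to 0.42 for Itga5 (95% confidence interval 0.03 to 0.80), which was 0.20 without Pax5 +/+ replicate 1 and 0.63 without replicate 2. Pax5 R31Q/- against Pax5 +/- also gave 0 members, beside 0.268% of all genes higher and 0.35% lower. The extremes there were Itga4 at 0.44 (95% confidence interval -0.05 to 0.93) and Itgb2 at -0.43 (-0.72 to -0.14, adjusted p = 0.283 from limma).

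Set directly against Pax5-deleted cells, Pax5 R31Q/- pro-B cells differed in 8 of the 9 members. Itga4, Itga5, Itga6 and Itgav passed as higher, beside 19.9% of all genes, and Itgal, Itgb2, Itgb3 and Itgb7 passed as lower, beside 14.7%. Itgb7 and Itgb3 also met the 3-fold rule, as 2.43% of genes did, with log2 fold changes of -3.63 (95% confidence interval -4.17 to -3.09, adjusted p = 6.09e-05 from limma) and -1.86 (-2.4 to -1.31, adjusted p = 0.00104 from limma). Itga6 differed most among those higher, by 1.48 (0.97 to 1.98, adjusted p = 0.00208 from limma), followed by Itgav with 0.95, Itga4 with 0.90 and Itga5 with 0.66. Itgb2 was lower by a log2 fold change of -0.70 (-0.99 to -0.40, adjusted p = 0.00517 from limma), a call lost without Pax5 R31Q/- replicate 2 (-0.59, adjusted p = 0.0514 from limma). The median over all genes was 0.13 here and 0.01 after median-ratio scaling, and no member that passed changed direction with the scaling. Without Pax5 R31Q/- replicate 1, Itga6 was the one member still passing as higher, and without replicate 2 Itga6 and Itgav were. Itga4 and Itga5 passed in 13 of 17 other settings each, and Itga4 was at 0.57 without Pax5-deleted replicate 1. Itgal was lower by a log2 fold change of -0.85 (-1.08 to -0.62, adjusted p = 0.000698 from limma), and Itgb1, at 0.38 (0.00 to 0.76, adjusted p = 0.102 from limma), did not pass, but passed without Pax5-deleted replicate 2 (0.62, adjusted p = 0.00511 from limma). The comparison shares its libraries with the ones above.

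The subunits that can pair were set beside each other as ratios of TPM within a library, which describes mRNA and not receptors at the surface. Itgb7 was 0.0475 and 0.0325 of Itgb1 in Pax5 +/+, 0.0368 and 0.0527 in Pax5 +/-, 0.0246 and 0.0216 in Pax5 R31Q/- and 0.589 and 0.483 in Pax5-deleted cells. Itga4 mRNA was 49.6 to 121.1 times as abundant as Itgb7 mRNA in the libraries of the other 3 genotypes and 3.10 and 4.26 times as abundant in Pax5-deleted cells. The Itga4 to Itgb1 ratio was 2.36 to 2.98 in the other 3 genotypes and 1.82 and 2.06 in Pax5-deleted cells. Of the summed TPM of the 4 member β subunits, Itgb7 made up 18.3% and 18.9% in Pax5-deleted cells and at most 2.66% in any other library.

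The Itgal to Itgb2 ratio separated the genotypes in pairs. It was 1.03 in both Pax5 +/+ libraries and 1.13 and 1.18 in Pax5 +/-, but 1.70 and 1.97 in Pax5 R31Q/- and 1.90 and 2.18 in Pax5-deleted cells. In Pax5 R31Q/- both genes lay apart from Pax5 +/+ in opposite directions, and in Pax5-deleted cells Itgal stood far higher while Itgb2 was also above. Itgav exceeded Itgb3 in all libraries of the other 3 genotypes, by 3.47 to 5.73 times, and was below it in Pax5-deleted cells, at 0.523 and 0.530. Itga6 was 0.241 to 0.314 of Itgb1 in the other 3 genotypes and 0.120 and 0.122 in Pax5-deleted cells, whereas the Itga5 to Itgb1 ratio overlapped between all genotypes.

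**Figure D3:**
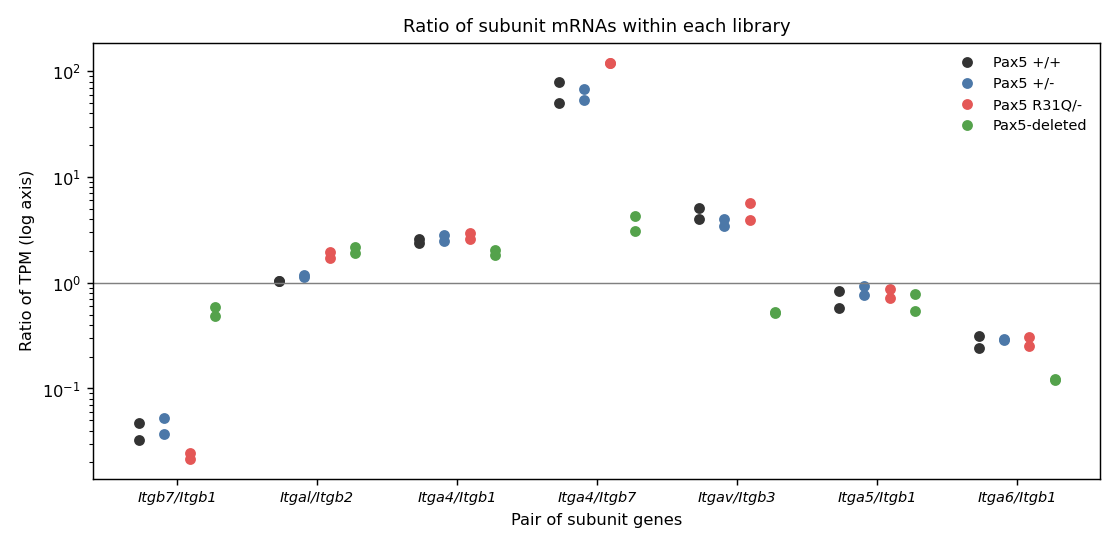
Ratio of the TPM of 2 subunit genes (log axis) in each of the 8 libraries, with a line at equal levels. The Pax5-deleted points stand apart for Itgb7/Itgb1, Itga4/Itgb7, Itgav/Itgb3 and Itga6/Itgb1 and lie below the others for Itga4/Itgb1 (1.82 and 2.06), while for Itgal/Itgb2 the Pax5 R31Q/- points (1.70 and 1.97) lie beside them.

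Peaks of wild-type Pax5 were present at 7 of the 9 genes. By the genotypes given above, the lists differ in Rag2 and in the number of intact Pax5 alleles as well as in R31Q. These differences cannot be told apart, so a peak in 1 list only is not assigned to R31Q. Counting the gene and 10 kb on either side, wild-type Pax5 had 14 peaks at the members, of which 9 overlapped an R31Q peak by at least 1 bp and are called common, and R31Q had 13 peaks. Over all peaks within 10 kb of a tested gene 68.8% were common (75.5% of those less than 50% repeat-masked), against 37.5% of all wild-type peaks. Itga5 and Itgb2 had no wild-type peak in this window, where 86.4% of tested genes have one. Itgb2 had no R31Q peak either, and Itga5 had 2 R31Q peaks beyond its 3′ end, toward Zfp385a, 1 of which overlapped a wild-type peak that lies outside the window. By this overlap 10 of the 13 R31Q peaks were common.

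Wild-type peaks lay within 1 kb of an annotated start site at 5 members, as 67.4% of tested genes do, and all 5 were common, as 93.5% of such peaks were. They lay at Itga4 (chr2:79254600-79256324, 1725 bp), Itga6 (chr2:71786553-71787755, 1203 bp), Itgb1 (chr8:128684922-128686475, 1554 bp), Itgav (chr2:83724203-83724770, 568 bp, at the downstream of its 2 start sites) and Itgb3 (chr11:104607934-104608141, 208 bp). At Itga4, Itga6 and Itgb1 the R31Q peak was of like width (1658, 1186 and 1529 bp), and at Itgav and Itgb3 it was wider (1256 and 525 bp). When at least 50% of both peaks had to overlap, the start-site pairs of Itgav and Itgb3 were no longer common, and 7 of the 14 wild-type peaks at the members were. Width is not a measure of occupancy, and read densities were not analysed here. These 5 genes were split in Pax5-deleted cells, with Itga6 and Itgav passing as lower, Itgb3 as higher, and Itga4 and Itgb1 not passing.

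The members that rose without Pax5 had their peaks inside or upstream of the gene. Itgb7 had 1 peak in each list, in intron 2 (chr15:102225158-102225922, 765 bp, and 753 bp for R31Q), 6395 bp downstream of the nearest start site and 49.7% repeat-masked. Itgal had a common peak upstream (chr7:127290166-127290567) and one over exon 16 (chr7:127313878-127314271), both also wider in the R31Q list. Itgb3 had, besides its start site, 3 peaks of wild-type Pax5 alone, in intron 2 (chr11:104631306-104631713), over exon 5 (chr11:104636998-104637411) and in intron 10, the last lying entirely in repeat-masked sequence. Itgb3 mRNA was at 3.62 ± 0.0875 TPM in Pax5 +/+ and 3.74 ± 1.39 TPM in Pax5 R31Q/- cells (SD, n = 2).

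The other unmatched peaks were single. Wild-type Pax5 alone had a peak 4732 bp upstream of Itga4 and one in intron 1 of Itga6 (292 bp wide), and R31Q alone had one upstream of Itga6, one upstream of Itgal (289 bp wide, 52.6% repeat-masked) and one beyond Itga5. The quartiles of the width were 290 and 338 bp for unique wild-type peaks and 354 and 644 bp for common ones, and of the 5 unmatched wild-type peaks at the members 2 lay within the former (292 and 335 bp) and 3 above it (408, 414 and 502 bp).

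**Figure D4:**
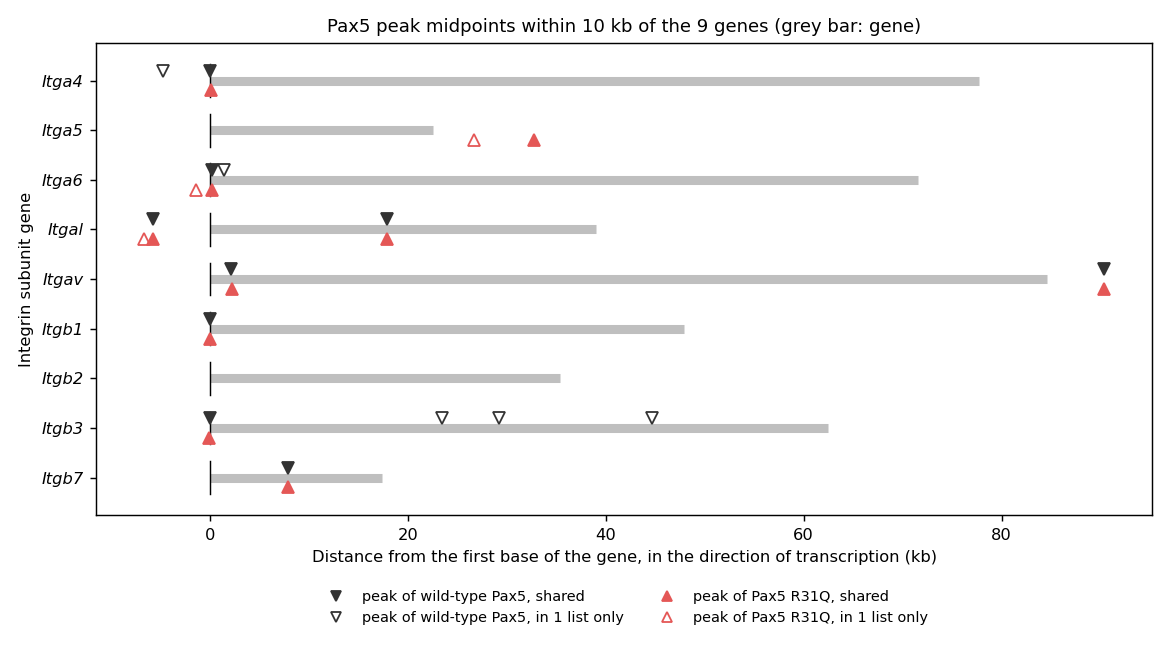
Midpoints of Pax5 peaks within 10 kb of the 9 genes, by distance from the first base of the gene in the direction of transcription (kb), for wild-type Pax5 (upper row) and R31Q (lower row), filled where the peak overlaps one of the other list. A run of 3 open wild-type marks lie along Itgb3, and Itgb2 has no mark.

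Among the 17 other integrin subunits, 9 were expressed highly enough to be tested. Itgax, the CD11c chain of dendritic cells and a partner of β2, had 0.697 and 0.261 TPM in Pax5 +/+, at most 0.596 TPM in Pax5 +/- and Pax5 R31Q/- and 13.7 and 20.5 TPM in Pax5-deleted cells, a log2 fold change of 3.60 (95% confidence interval 3.02 to 4.19, adjusted p = 5.5e-05 from limma). Itgad, another β2 partner, rose from 0.458 ± 0.186 to 2.68 ± 1.23 TPM (SD, n = 2; log2 fold change 1.30, adjusted p = 0.0146 from limma), a call lost with no filter on low TPM (0.0763), without Pax5 +/+ replicate 1 (0.0811) and without Pax5-deleted replicate 2 (0.0503). Itgb4, the laminin-binding β4 subunit that pairs with α6, went the other way. It was at 4.51 and 5.46 TPM in Pax5 +/+, 1.59 and 1.64 in Pax5 +/-, 0.454 and 0.607 in Pax5 R31Q/- and 1.10 and 0.837 TPM in Pax5-deleted cells, with log2 fold changes against Pax5 +/+ of -1.96 in Pax5 R31Q/- (adjusted p = 0.00185 from limma) and -1.60 in Pax5-deleted cells (adjusted p = 0.000468 from limma). Itga9, an α chain of β1, was highest in Pax5 R31Q/- at 14.5 and 9.84 TPM against 5.47 and 4.49 in Pax5 +/+ (log2 fold change 1.12, adjusted p = 0.0327 from limma), a call lost in each fit without a Pax5 +/+, Pax5 +/- or Pax5 R31Q/- library (adjusted p of 0.0622 to 0.237 from limma), with no filter on low TPM (0.144) and with only the 2 genotypes compared (0.105). Itgae, the other partner of β7, stayed at or below 0.448 TPM in every library.

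Of the 29 tested genes that activate integrins or link them to actin, 6 passed as higher and 8 as lower in Pax5-deleted cells, beside 16.2% and 19.7% of all genes tested. In Pax5 R31Q/- cells 0 passed as higher and 4 as lower, beside 1.62% and 2.55%. Nedd9, a docking protein downstream of integrins, was at 225.1 and 185.4 TPM in Pax5 +/+, 45.4 and 44.9 in Pax5 R31Q/- and 18.7 and 19.3 TPM in Pax5-deleted cells. Parvb, a parvin of the complex that joins β tails to actin, was at 59.5 and 77.6, then 12.7 and 11.3, and 10.4 and 10.6 TPM. Both passed as lower in Pax5 R31Q/- (log2 fold changes of -2.15, adjusted p = 0.000313, and -2.41, adjusted p = 0.000916, from limma) and in Pax5-deleted cells (-3.36 and -2.58). Skap1, an adaptor in inside-out activation, fell from 2.81 ± 0.803 TPM to 0.58 ± 0.0141 in Pax5 R31Q/- and 0.35 ± 0.0841 in Pax5-deleted cells (SD, n = 2), and its call in Pax5 R31Q/- was lost in each fit without a library of either genotype, with no filter (adjusted p = 0.0799 from limma) and with only the 2 genotypes compared (0.064). On the other side, Fyb, the adaptor that binds Skap proteins, rose from 3.25 ± 0.380 to 43.1 ± 23.1 TPM (SD, n = 2) in Pax5-deleted cells (log2 fold change 3.27, adjusted p = 0.000321 from limma), and Parvg, the hematopoietic parvin, from 227.1 ± 2.04 to 509.4 ± 15 TPM (1.16, adjusted p = 0.000101 from limma). The focal adhesion kinase gene Ptk2 passed with 0.85 (adjusted p = 0.0411 from limma), and lost its call in 10 of 17 other settings.

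Of the 8 tested ligand genes 1 passed as higher and 1 as lower in Pax5-deleted cells, and of the 9 tested lateral partners 1 as higher and 0 as lower, beside the 16.2% and 19.7% of all genes. Among the ligands, Cdh1, the E-cadherin bound by αE with β7, passed as higher in Pax5-deleted cells (2.23 and 7.68 TPM against 0.811 and 0.236, log2 fold change 1.82, adjusted p = 0.0134 from limma). That call was lost with no filter (0.0876), with only the 2 genotypes compared (0.0781) and without Pax5 +/+ replicate 2 (0.0885). Lamc1, a laminin chain, passed as lower (26.2 and 27.6 against 50.9 and 50.8 TPM, -0.90, adjusted p = 0.000875 from limma). Among the tetraspanins and other lateral partners, Cd47, which associates with β3 integrins, passed as higher, at 330.7 and 478.1 TPM against 181.2 and 175.9 in Pax5 +/+ (1.15, adjusted p = 0.00155 from limma). It stood at 299.2 and 293.4 TPM in Pax5 R31Q/- (0.73, adjusted p = 0.0569 from limma), which passed in 6 of 17 other settings. No ligand or lateral partner passed in Pax5 R31Q/- or Pax5 +/- against Pax5 +/+.

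The genes whose log2(TPM + 1) followed Itgb7 most closely over the 8 libraries, among 10789 tested genes with a mean above 5 TPM in a genotype, were Tyrobp (Pearson's r 0.9966), an adaptor of activating receptors of myeloid and NK cells, Fgr (0.9952), a Src family kinase, and Hpse (0.9946), heparanase. Tyrobp was at 36.1 to 56.2 TPM in the other 3 genotypes and at 297.7 and 380.1 TPM in Pax5-deleted cells. For Itgb3 they were Nomo1 (0.9956), Nefh (0.9872) and Orai3 (0.9869). These are descriptions over 8 libraries in which 1 genotype stands apart, so that any gene that differs in Pax5-deleted cells alone will correlate.

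Markers of other cells moved with the Pax5-deleted genotype, and their part in the integrin differences was not tested. All 5 progenitor markers (Flt3, Notch1, Cd34, Ly6a and Ccr9) passed as higher. They summed to 905.6 and 815.1 TPM in Pax5-deleted replicates 1 and 2, against 80.8 to 95.7 TPM in Pax5 +/+. Of 7 plasmacytoid dendritic cell markers 5 passed as higher. These 7 summed to 853.7 and 1489 TPM in Pax5-deleted replicates 1 and 2, against 402.9 to 445.3 TPM in Pax5 +/+. Of 7 tested T and NK cell markers 4 passed as higher and 1 as lower, while Cd3e, Cd3d and Cd3g stayed below 1 TPM in every library. Summed myeloid markers were 2145 TPM in Pax5-deleted replicate 1 and 409.1 TPM in replicate 2, against 398.8 to 620.4 TPM in Pax5 +/+, and 2 of 9 passed as higher, Csf1r and Ly6c2. Ly6c2 was at 82.8 and 99.2 TPM in Pax5-deleted replicates 1 and 2, against 20.8 and 16.4 TPM in Pax5 +/+. Itgb7 was at 35.5 and 40.9 TPM and Itgb3 at 13.9 and 17.9 TPM in the same replicates. Megakaryocyte markers, the cells best known for Itgb3, summed to 28.1 and 10.6 TPM in Pax5-deleted replicates 1 and 2 and to 8.45 to 17.9 TPM in Pax5 +/+, and none of the 7 tested passed. Mast cell and basophil markers summed to 20.5 to 32.7 against 8.75 to 11.0 TPM, with Mcpt8 passing as higher and Gata2 (0.294 against 0.874 TPM, adjusted p = 0.0449 from limma) as lower. Erythroid markers summed to 13.5 to 36.2 against 78.7 to 133.7 TPM, with 3 of 4 tested passing as lower. Stromal and endothelial markers summed to 16.8 to 19.5 against 15.9 to 16.5 TPM, with 2 of 6 tested passing in each direction. Dntt, the terminal transferase of pro-B cells, passed as higher. Some markers also stood apart from Pax5 +/+ in Pax5 R31Q/-, and their part in the integrin values there was not tested either. Flt3 was at 23.7 TPM in Pax5 R31Q/- and 20.2 in Pax5 +/-, against 9.66 TPM in Pax5 +/+, with log2 fold changes of 1.21 (adjusted p = 0.00257 from limma) and 0.99 (adjusted p = 0.0692 from limma). Lck was at 96.6 and 96.7 TPM against 61.9 TPM, with 0.63 (adjusted p = 0.0131 from limma) and 0.64 (adjusted p = 0.0969 from limma). No other of the 7 tested T and NK cell markers passed in Pax5 R31Q/-, where their median log2 fold change was -0.12. The plasmacytoid dendritic cell marker Cox6a2 was at 3.14 and 6.21 against 11.6 TPM and passed as lower in Pax5 R31Q/- (adjusted p = 0.0162 from limma) but not in Pax5 +/- (adjusted p = 0.569 from limma). None of these 3 passed between Pax5 R31Q/- and Pax5 +/-. The marker that did was Kit, the stem cell factor receptor gene, whose mean was 90.4 TPM against 41.0 TPM (log2 fold change 1.13, adjusted p = 0.0328 from limma). Summed progenitor markers were 129.6 to 136.3 TPM in Pax5 R31Q/- and 122.4 to 152.1 TPM in Pax5 +/-, and summed myeloid markers were 957.5 to 1006 and 671.8 to 1559 TPM, with none of the 9 passing in Pax5 R31Q/-. Summed plasmacytoid dendritic cell markers were 291.7 to 291.9 TPM in Pax5 R31Q/- and 414.2 to 438.8 TPM in Pax5 +/-.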

How the data were processed

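RNA-seq of sorted bone marrow cells (8 libraries, 4 genotypes) and Pax5 ChIP-seq of cultured pro-B cells (2 libraries) were used as deposited. The authors aligned reads to GRCm38/mm10 with STAR (version 2.4.2 in the submitters' processing notes), counted uniquely mapping reads on RefSeq genes and deposited TPM values for 25579 genes. The authors called peaks with MACS against an input library after alignment with Bowtie2 2.3.5.1, with reads down-sampled where samples were compared, and the deposited peak files hold positions with a score of 0 throughout, so no peak height or depth is known. The labels of the R31Q ChIP-seq library place R31Q once under Rag2 and once under Pax5, and the latter was followed.

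Genes that reached a TPM of 1 in any library were fitted with limma 3.58.1 (R 4.3.3) on log2(TPM + 1), all 8 libraries in one fit, eBayes with trend, and Benjamini-Hochberg adjustment. The 3-fold rule asks for an adjusted p under 0.05, a difference over 3-fold and a mean TPM over 5 in a genotype, and immunoglobulin genes were not left out. The authors used read counts for their own test, which were not used here. The steps between TPM values gave back whole reads for 17371 genes, of which 13817 gave exactly the RefSeq exon length, and on genes of 50 or more reads this match fell from 8255 of 10444 to 0 after values were moved by 1 in 1000. The tolerance was 0.005 reads. Depth was 21833654 to 34837452 reads per library.

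Peaks were assigned to genes extended by 10 kb, and RefSeq features and sequences are those of GRCm38. Python 3.11.15, pysam 0.24.0 and pandas 2.3.3 were used. Alternatives covered the pseudocount, filter, libraries, scaling, trend, limma-voom on recovered reads, each library left out, the gene window, the overlap rule and repeat-masked peaks. Named genes were all 9 members, other integrin subunits that passed in Pax5-deleted or Pax5 R31Q/- cells, per list the 3 genes passing with the largest change in each direction in Pax5-deleted cells, and the 3 genes closest to Itgb7 and Itgb3. The members and all lists were chosen with earlier results of these data known.

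One pro-B cell marker gene is not reported here.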

Additional observations from a re-analysis of the deposited data

How the results depend on the processing

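The rises of Itgb7, Itgb3 and Itgal in Pax5-deleted cells held their direction and passed in all 17 other settings, with log2 fold changes of 2.5 to 3.95, 1.27 to 2.22 and 1.27 to 1.44. The count of members higher there was 4 with quantile normalization, with limma-voom on reads and without either Pax5-deleted library, and 3 otherwise. The count of members higher in Pax5 R31Q/- than in Pax5 +/+ was 0 with only the 2 genotypes compared, with median-ratio scaling, with eBayes without trend and with limma-voom on reads, and 0 to 3 when a library was left out. The count lower in Pax5-deleted than in Pax5 +/+ cells was 1 with no filter on low TPM (Itgav), 0 with only the 2 genotypes compared and 1 to 3 when a library was left out (1 without Pax5 +/+ replicate 1). The count higher in Pax5 R31Q/- than in Pax5-deleted cells was 2 with no filter (Itga6 and Itgav) and 1 to 5 when a library was left out, and the count lower was 3 to 4. The share of all genes that passed moved too. In Pax5-deleted against Pax5 +/+ cells 1108 (only the 2 genotypes) to 2719 genes passed as higher, and 1221 (only the 2 genotypes) to 4232 (without Pax5-deleted replicate 2) as lower, beside 2182 and 2647 as reported. For Pax5 R31Q/- against Pax5 +/+ these were 31 (without Pax5 R31Q/- replicate 1) to 413 (without Pax5-deleted replicate 2) and 60 (without Pax5 R31Q/- replicate 2) to 544 (limma-voom), beside 218 and 342, and for Pax5 R31Q/- against Pax5-deleted cells 1006 (without Pax5 R31Q/- replicate 1) to 4459 (without Pax5-deleted replicate 2) and 982 (without Pax5 R31Q/- replicate 2) to 2736 (limma-voom), beside 2677 and 1978. Pax5 +/- against Pax5 +/+ gave up to 22 and 59 (no filter), beside 0 and 3, and Pax5 R31Q/- against Pax5 +/- 0 (without Pax5 +/- replicate 1 or either Pax5 R31Q/- library) to 76 and 115 (limma-voom), beside 36 and 47. With no filter more genes are tested and with fewer genotypes fewer libraries enter the fit, and the cause of the other changes was not tested.

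Values that changed sign belonged to members that had not passed. Itgb3 in Pax5 R31Q/- against Pax5 +/+ was 0.00 with a pseudocount of 0.1 and with quantile normalization, -0.03 with median-ratio scaling, -0.04 with limma-voom and -0.30 to 0.31 when a library was left out. With a library left out, Itgav ran from -0.08 to 0.21 and Itgb7 from -0.43 to 0.04 in that comparison. Against Pax5 +/+ in the same way, Itga6 ran from -0.03 to 0.42 and Itgb7 from -0.02 to 0.44 in Pax5 +/-, and Itga4 from -0.57 to 0.10, Itga5 from -0.18 to 0.25 and Itgb1 from -0.14 to 0.35 in Pax5-deleted cells. Itgav ran from -0.20 to 0.00 in Pax5 R31Q/- against Pax5 +/-.

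Extending genes by 50 kb gave 35 wild-type peaks, 23 of them common, and 31 R31Q peaks, and extending them by 2.5 kb gave 8 R31Q peaks. A pseudocount of 1 on both subunits moved the mean Itgb7/Itgb1 ratio to 0.0542 in Pax5 +/+, 0.0578 in Pax5 +/- and 0.0335 in Pax5 R31Q/-, Itga4/Itgb7 to 45.8 in Pax5 +/- and 82.3 in Pax5 R31Q/-, Itgav/Itgb3 to 3.27 in Pax5 +/- and 0.555 in Pax5-deleted cells, and Itga6/Itgb1 to 0.302 in Pax5 +/- and 0.134 in Pax5-deleted cells.

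The main limits are 2 libraries per genotype and 1 per ChIP-seq genotype, peak lists without heights, and 69 to 142 reads behind each Itgb7 value outside Pax5-deleted cells. Itga4 overlaps Cerkl and Itgav overlaps Dnmt3l-ps1 on the other strand, Itga5 holds Mir6963, and how strands were counted is not stated, so reads of these pairs cannot be told apart. No paired analysis was possible because the labels give no replicate numbers, and replicates were numbered by accession order within a genotype.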
